A study of Homo sapiens with 6 samples.

Results

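SOX transcription factors were examined in the established human glioblastoma cell line U251, with and without tumor necrosis factor-α (TNF-α). The 10 genes described are SOX2, SOX4, SOX5, SOX6, SOX8, SOX9, SOX10, SOX11, SOX13 and SOX21, each found by its name among the 58735 genes of the expression table. The cells of the NC group (n = 3) received a matching volume of sterile deionized water, and those of the TNF-α group (n = 3) received recombinant human TNF-α at 10 ng/mL, both for 24 h. The replicates are independent biological replicates per the labels, all from 1 cell line, and the poly(A) RNA of each was sequenced as bulk RNA. Levels are FPKM, fragments scaled to exon length and library size. Values per length can be compared between genes.

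SOX proteins are transcription factors that bend DNA through an HMG box, the DNA-binding domain that defines the family. They are sorted into groups by the sequence of that box. SOX2 and SOX21 belong to group B, in which SOX2 activates and SOX21 is chiefly a repressor in neural progenitors. SOX4 and SOX11 (group C) act in immature neurons and many tumors, SOX5, SOX6 and SOX13 (group D) lack an activation domain of their own, and SOX8, SOX9 and SOX10 (group E) act in glia, neural crest and cartilage. In glioblastoma, SOX2 and SOX9 are best known for maintaining stem-like cells.

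The libraries held between 31992167 and 37897044 reads in genes. Of 7 markers of glioma and the astrocyte lineage, 6 were expressed (VIM, CD44, NES, EGFR, GFAP and FABP7). The seventh, the astrocyte marker S100B, was at 0 reads in 4 of the 6 libraries. PTPRC (leukocytes), MOG and MAG (oligodendrocytes) and TYR (melanocytes) were at 0 reads in all 6 libraries, but other markers of these lists were not. CD14 had 32 to 76 reads, PMEL 11 to 26, MLANA 1 to 48 and MBP 0 to 20. The summed FPKM of 5 leukocyte markers was 0.670 to 0.880 in NC and 0.533 to 1.66 in TNF-α. For 4 melanocyte markers it was 0.400 to 0.653 and 0.121 to 0.435, and for 4 oligodendrocyte markers at most 0.0881. For 4 endothelial markers the sum was 6.21 to 6.80 in NC and 2.16 to 5.98 in TNF-α. KDR alone was at 6.08 to 6.64 and 1.95 to 5.74, and PECAM1 and VWF had at most 8 reads in any library. CDH5 went the other way from KDR, at 0.0819 to 0.143 in NC and 0.190 to 0.332 in TNF-α. For 5 neuronal markers the sum was 6.38 to 6.67 and 3.21 to 6.02, and for 4 epithelial markers 11.8 to 13.9 and 9.18 to 34.0. KRT18 alone was at 10.9 to 13.0 and 8.73 to 32.6, and EPCAM and CDH1 had at most 4 reads in any library. KRT8 was at 0.784 to 0.905 in NC and 0.443 to 1.40 in TNF-α. The part of such signals in the SOX values was not tested. TNF-α replicates 2 and 3 stood apart from the other 4 libraries. The reads that fell in genes with more than 8 kb of exons were 16.6% and 17.9% there and 28.8% to 29.1% elsewhere. Ribosomal protein genes took 8.11% and 6.96% of the reads there and 2.90% to 3.22% elsewhere. Both of these libraries belong to the TNF-α group, so these shifts and the treatment cannot be told apart within them. Values are therefore given for each library, and again with replicate 1 as the only TNF-α library.

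Of the 10 genes, 5 passed the filter on low values (FPKM no lower than 1 in 3 or more libraries), namely SOX2, SOX9, SOX4, SOX13 and SOX21. Of these 5, SOX21 alone passed the threshold of the comparison of TNF-α with NC, and it fell (limma on log2(FPKM + 1), Benjamini-Hochberg adjusted p under 0.05 over all genes tested). Of all 12136 tested genes, 1.01% passed in either direction, 0.297% lower and 0.717% higher. The 5 log2 fold changes were all below 0, as were 5704 of the 12136 tested genes (47%). Their median was -0.54, against 0.04 over all tested genes. In 3 of the 5 (SOX2, SOX13 and SOX21) every TNF-α library lay below every NC library, which 15.3% of all tested genes did as well. The direction was not shared by the libraries to the same extent: the median log2 ratio of the 5 genes to the NC mean was -0.10, -0.91 and -0.82 in TNF-α replicates 1 to 3. An unadjusted p under 0.05 was reached by 3 of the 5 and by 24.2% of all tested genes. In bulk RNA, fewer cells that express a gene and less RNA of it per cell cannot be told apart.

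SOX21 (ENSG00000125285) is a single-exon gene of 2778 bases on the minus strand of chromosome 13, at chr13:94709622-94712399 on GRCh38, and its exon shares no base with another gene. Its antisense neighbour SOX21-AS1 starts on the opposite strand, 171 bases away by the RefSeq starts, and runs in the other direction. The window around the SOX21 start is shown because it holds the starts of both RNAs, which were both lower in every TNF-α library than in any NC library. It covers chr13:94712496-94712795 (GRCh38.p14, RefSeq, minus strand), 250 bases before the start and 50 from it on, and 270 of its 300 bases also lie in the window of SOX21-AS1. Capitals mark, in order, a run that matches the NF-kB consensus, the letters TATAAA as they read on the other strand, and the first transcribed base.
SOX21 promoter window: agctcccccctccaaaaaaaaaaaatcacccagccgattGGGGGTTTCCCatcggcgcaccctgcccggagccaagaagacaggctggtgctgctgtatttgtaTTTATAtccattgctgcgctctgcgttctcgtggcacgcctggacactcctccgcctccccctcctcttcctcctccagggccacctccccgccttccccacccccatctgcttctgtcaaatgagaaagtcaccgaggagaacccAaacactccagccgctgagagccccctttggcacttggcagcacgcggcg

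NF-kB is a transcription factor family that TNF-α activates. The matching run in the SOX21 window, GGGGGTTTCCC, spans positions -211 to -201 relative to the start. A match to the NF-kB consensus on either strand is held by 5.91% of 35116 RefSeq windows of this length, and TATAAA on either strand by 11.5%. RefSeq windows were found for 6 of the 10 genes (SOX2, SOX4, SOX5, SOX6, SOX13 and SOX21), and SOX21 was the only one of these with an NF-kB match. The letters ACAAT, the core that SOX proteins bind, were found in the windows of SOX5 and SOX6 and not in the other 4, against 27.4% of all windows. SOX6 has several windows, each with a match, and the 27.4% counts windows and not genes. A match is a description of the letters and not evidence of binding.

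SOX21 had an FPKM of 9.14, 9.34 and 9.64 in NC replicates 1 to 3 and of 3.25, 1.74 and 2.37 in TNF-α replicates 1 to 3. All 3 TNF-α libraries were low and the groups were far apart. The mean went from 9.37 ± 0.248 to 2.45 ± 0.760 (SD, n = 3 each), a ratio of 0.262. The reads behind these values numbered 918, 851 and 860 in NC and 290, 125 and 160 in TNF-α. On the scale of log2(FPKM + 1), which understates changes of low genes, SOX21 fell by 1.61 ± 0.18 (SE, limma adjusted p = 0.0190). With TNF-α replicate 1 as the only treated library it was -1.29 (adjusted p = 0.000552), a fit in which the lone library is assumed to vary like the NC libraries. The call was lost without NC replicate 1, 2 or 3 (adjusted p = 0.143, 0.164 and 0.166) and without TNF-α replicate 3 (adjusted p = 0.134), while the log2 fold change stayed between -1.77 and -1.45 over all libraries left out in turn.

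SOX2 (ENSG00000181449, chr3:181711924-181714436, 1 exon), the pluripotency and neural stem cell factor, was the most abundant SOX gene of the control cells and lay above 94.5% of tested genes. Its FPKM was 60.8, 58.9 and 66.3 in NC and 57.8, 22.6 and 30.4 in TNF-α replicates 1 to 3. TNF-α replicate 1 lay just under the lowest NC library, and replicates 2 and 3 far below it. The means were 62.0 ± 3.87 and 36.9 ± 18.5, and the log2 fold change of -0.84 ± 0.34 (SE) did not pass (adjusted p = 0.195). With TNF-α replicate 1 alone it was -0.10 (adjusted p = 0.599). The exon of SOX2 lies in an intron of SOX2-OT on the same strand and shares no base with its exons.

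**Figure D1:**
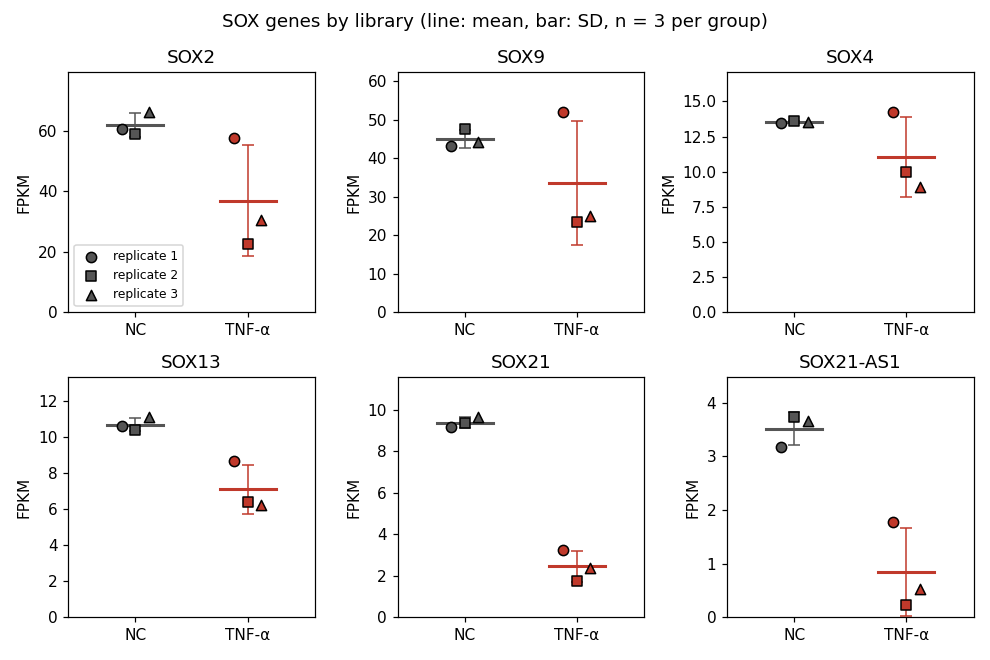
FPKM of the 5 tested SOX genes and of SOX21-AS1 in each library, NC in grey and TNF-α in red, with the mean as a line and the SD as a bar (n = 3 per group) and the replicate number as the marker shape. SOX21 was at most 3.25 in TNF-α and at least 9.14 in NC, whereas TNF-α replicate 1 of SOX9 and SOX4 lay above the NC libraries.

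The ratio of SOX21 to SOX2, which removes the scale of each library, was 0.151, 0.159 and 0.145 in NC and 0.0562, 0.0768 and 0.0781 in TNF-α. The groups did not overlap, and the log2 ratio differed by -1.12 (exact two-sided permutation p = 0.1, the smallest that 3 against 3 libraries can give, adjusted p = 0.167 over 5 ratios). SOX21 to SOX9 gave 0.212, 0.197 and 0.218 against 0.0625, 0.0739 and 0.0947 (difference of log2 ratios -1.46, exact permutation p = 0.1). SOX21 was thus lower against both abundant SOX genes in every treated library, TNF-α replicate 1 included. The ratio of SOX2 to SOX9 was 1.41, 1.24 and 1.498 in NC and 1.11, 0.962 and 1.21 in TNF-α (difference of log2 ratios -0.34, exact permutation p = 0.1), and that of SOX13 to SOX2 overlapped between the groups (0.25, exact permutation p = 0.4).

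SOX9 (ENSG00000125398, chr17:72121020-72126420, 3 exons), which drives cartilage and astrocyte programs, was second in level, above 92.1% of tested genes. It had an FPKM of 43.1, 47.5 and 44.3 in NC and of 52.0, 23.5 and 25.03 in TNF-α. Replicate 1 was thus the highest of the 6 libraries and replicates 2 and 3 the lowest, and the groups overlapped. The means were 44.9 ± 2.28 and 33.5 ± 16.0, with a log2 fold change of -0.51 ± 0.31 (SE, adjusted p = 0.249). With TNF-α replicate 1 alone the direction turned, to 0.21 (adjusted p = 0.227).

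The other group E members were hardly detected. SOX10, the factor of neural crest and oligodendrocytes, had 4, 6 and 2 reads in NC and 4, 0 and 0 in TNF-α, and without a filter its log2 fold change was -0.03 (adjusted p = 0.538). SOX8 had 0 reads in all 6 libraries, and 3 reads would have given an FPKM of 0.0187 to 0.0279 depending on the library. A level below that was not detectable at this depth.

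SOX4 (ENSG00000124766, chr6:21592768-21598619, 1 exon), a group C factor of progenitors and tumors, had nearly equal FPKM values in NC, at 13.5, 13.6 and 13.5. They were 14.3, 9.94 and 8.92 in TNF-α, so that replicate 1 lay above the NC libraries and replicates 2 and 3 below. The means were 13.5 ± 0.0620 and 11.04 ± 2.83, and the log2 fold change was -0.30 ± 0.19 (SE, adjusted p = 0.254), turning to 0.07 with replicate 1 alone (adjusted p = 0.655). Of its exon, 2.87% is shared with an RNA on the opposite strand. SOX11, its neuronal relative, had 0 reads in all 6 libraries, where 3 reads would have been an FPKM of 0.00952 to 0.0142.

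SOX13 (ENSG00000143842, chr1:204073115-204127743), the most abundant member of group D, had an FPKM of 10.6, 10.4 and 11.1 in NC and of 8.67, 6.42 and 6.22 in TNF-α. All 3 TNF-α libraries were below the NC libraries, with replicate 1 nearest to them. The means were 10.7 ± 0.375 and 7.10 ± 1.36, and the log2 fold change was -0.54 ± 0.15 (SE, adjusted p = 0.195). With replicate 1 alone it was -0.27 (adjusted p = 0.115).

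The long partners of group D were low. SOX5 (chr12:23529500-24562544), with 10445 bases of exons, had an FPKM of 0.689, 0.879 and 0.668 in NC and of 0.730, 0.151 and 0.213 in TNF-α, from 260, 301 and 224 and from 245, 41 and 54 reads. TNF-α replicate 1 lay among the NC libraries, and replicates 2 and 3, in which long genes took a smaller share of reads, lay far below. SOX5 was below the filter, and its log2 fold change was -0.38 with an adjusted p of 0.205 at a filter of 0.5 FPKM and of 0.358 without a filter. SOX6, at 19636 bases, had 18, 15 and 27 reads in NC and 14, 9 and 0 in TNF-α. It was below both filters, and without a filter the log2 fold change was -0.02 (adjusted p = 0.538).

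**Figure D2:**
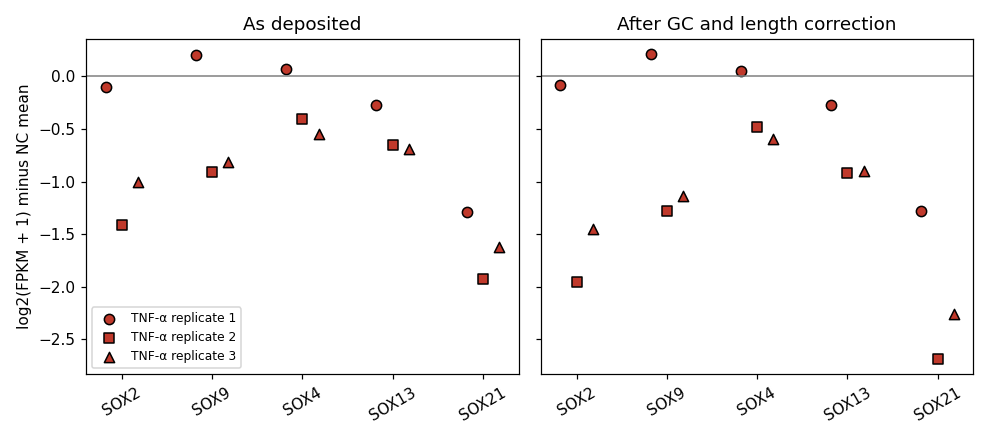
Difference of log2(FPKM + 1) from the NC mean in each TNF-α library (marker shape) for the 5 tested SOX genes, from the deposited values on the left and after a correction for GC content and gene length on the right. SOX21 lay at -1.29, -1.92 and -1.62 before and at -1.28, -2.69 and -2.26 after the correction, and replicate 1 lay near 0 for SOX2 and SOX4.

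Since TNF-α replicates 2 and 3 differed from the other libraries in the share of long genes, each library was corrected for GC content and exon length. The corrected log2 ratios of SOX2 were -0.08, -1.96 and -1.45 in TNF-α replicates 1 to 3, and those of SOX9 were 0.21, -1.28 and -1.14. For SOX4 they were 0.05, -0.48 and -0.59, and for SOX13 -0.28, -0.92 and -0.90. For SOX21 they were -1.28, -2.69 and -2.26, against -1.29, -1.92 and -1.62 before the correction. The gap between replicate 1 and the other TNF-α libraries was thus wider after the correction for all 5 genes, SOX21 included. In the corrected data SOX21 passed the threshold (log2 fold change -2.07, adjusted p = 0.0443) and the other 4 did not. Without TNF-α replicate 1, all 5 passed (log2 fold change -1.21 for SOX2, -0.86 for SOX9, -0.48 for SOX4, -0.67 for SOX13 and -1.77 for SOX21), but so did 9630 of the 12136 tested genes.

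Of the 9 other SOX genes examined, 4 were tested and none passed by limma, and 0 of the 4 had an unadjusted p under 0.05, against 24.2% of all tested genes. SOX3, the X-linked relative of SOX2, had an FPKM of 21.5, 23.4 and 27.1 in NC and of 20.8, 36.5 and 34.6 in TNF-α, so that it lay above the NC range only in replicates 2 and 3. It did not pass (log2 fold change 0.31 ± 0.24 SE, adjusted p = 0.344), and its value turned to -0.19 with TPM, -0.02 with quantile normalization, -0.37 with the GC and length correction and -0.19 with TNF-α replicate 1 alone. Without replicate 1 it passed, at 0.55 (adjusted p = 0.00164), as did 9630 of the 12136 tested genes. SOX12 (group C) was at -0.09 and reached -0.53 with replicate 1 alone (adjusted p = 0.0145) and -0.52 with the correction (adjusted p = 0.0450), while without replicate 1 it was 0.14. SOX18, an endothelial factor, was at -0.54 (adjusted p = 0.214) and passed only with the correction (-1.28, adjusted p = 0.0360). With replicate 1 alone SOX18 was at -1.05. SOX15 was at 0.14, with -0.27 under TPM, -0.49 under the correction, -0.07 under limma-voom and -0.05 with replicate 1 alone. SOX7 and SOX30 had at most 12 reads in any library, and SOX1, SOX14 and SOX17 had 0 in all 6.

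In NC, the order of levels was SOX2, SOX9, SOX3, SOX4, SOX13, SOX12, SOX21, SOX18, SOX15 and SOX5. The ranges of neighbours in this order were separate except for SOX12 and SOX21. In TNF-α, neighbours overlapped within the run SOX2, SOX9 and SOX3 and within the run SOX4, SOX12 and SOX13. SOX3 and SOX4 were separate, as were SOX13 and SOX18. SOX21 moved to a place between SOX18 and SOX15, overlapping both. SOX21 made up 5.20%, 5.11% and 5.00% of the summed FPKM of the 19 SOX genes in NC and 1.93%, 1.44% and 1.90% in TNF-α. SOX2 and SOX9 together made up 59.0%, 58.2% and 57.4% in NC, and 65.2%, 38.2% and 44.4% in TNF-α replicates 1 to 3. The share of SOX3 was 12.2% to 14.1% in NC, and 12.4%, 30.2% and 27.7% in TNF-α replicates 1 to 3.

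**Figure D3:**
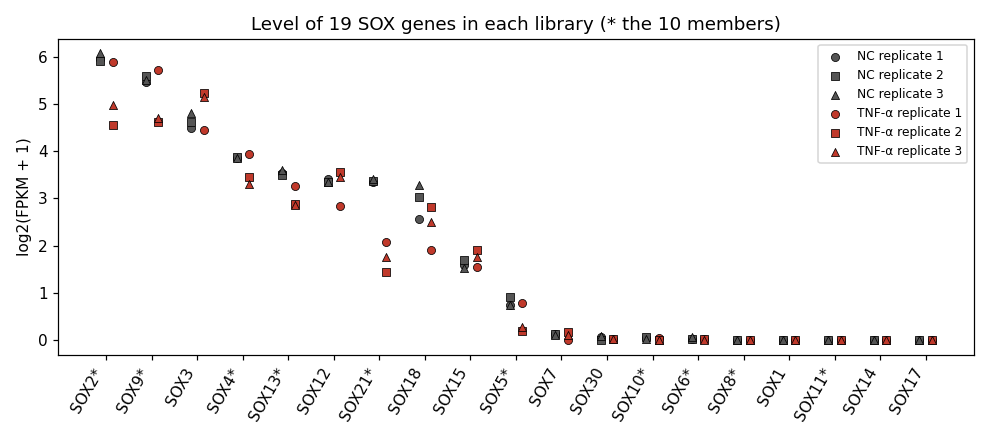
Level of 19 SOX genes as log2(FPKM + 1) in each library, ordered by the NC mean, with NC in grey and TNF-α in red and replicates by marker shape. SOX2 was highest with a mean of 62.0 FPKM in NC, and SOX8, SOX11, SOX1, SOX14 and SOX17 were at 0 in all libraries.

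Among RNAs transcribed next to or around SOX genes, SOX21-AS1 (ENSG00000227640, chr13:94712716-94716246) was the only one tested. It had an FPKM of 3.17, 3.73 and 3.66 in NC and of 1.77, 0.235 and 0.526 in TNF-α. As with SOX21, all 3 TNF-α libraries were below the NC libraries, and it differed more among them. The log2 fold change of -1.38 ± 0.30 (SE) did not pass (adjusted p = 0.132), and it was -0.70 with TNF-α replicate 1 alone. Without replicate 1 it was -1.72 and passed (adjusted p = 1.8e-05), as did 9630 of the 12136 tested genes. The ratio of SOX21 to SOX21-AS1 was 2.89, 2.50 and 2.64 in NC and 1.83, 7.40 and 4.51 in TNF-α (exact permutation p = 0.4). The 2 genes share no exon base, so counting without regard to strand would not mix their annotated exons. SOX2-OT, the RNA that surrounds SOX2, had an FPKM of 0.843, 0.856 and 0.626 in NC and of 0.406, 0.240 and 0.258 in TNF-α and was below the filter. SOX9-AS1 reached at most 0.0931, and SOX5-AS1 was at 0 reads in all 6 libraries.

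The 5 genes whose log2 ratios to the NC mean lay closest to those of SOX21 in all 6 libraries, out of 12135 compared, were NPY1R, CNR1, NTN4, SYTL5 and MYO18A. The largest difference from SOX21 in any library was 0.22 for NPY1R (a neuropeptide Y receptor), 0.25 for CNR1 (a cannabinoid receptor), 0.25 for NTN4 (a netrin), 0.29 for SYTL5 (a synaptotagmin-like protein) and 0.30 for MYO18A (an unconventional myosin). CNR1, for example, had an FPKM of 4.75, 4.70 and 4.79 in NC and of 1.06, 0.358 and 0.577 in TNF-α. These genes were chosen for a pattern like that of SOX21, so their values are a description.

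Other genes of the SOX pathways were read from lists. Where a listed gene passed without TNF-α replicate 1, so did 9630 of the 12136 tested genes. Of 23 other HMG-box genes, 19 were tested and 1 was lower (against 0.297% of all tested genes). This was TOX, a nuclear HMG-box factor of lymphocytes and neural progenitors, with an FPKM of 3.80, 4.07 and 4.08 in NC and of 2.04, 1.54 and 1.31 in TNF-α (log2 fold change -0.93 ± 0.14 SE, adjusted p = 0.0498). The median of the 19 was -0.12, and 4 of the 19 had an unadjusted p under 0.05 by limma (24.2% of all tested genes). The largest changes were those of BBX (-1.02, adjusted p = 0.196) and PBRM1 (-0.94, adjusted p = 0.195), which without TNF-α replicate 1 were -1.60 and -1.36 and both passed. With replicate 1 alone BBX turned to 0.13, PBRM1 was at -0.10 and TOX was at -0.71. The call of TOX was lost under 13 of 17 alternatives, among them leaving out any 1 NC library or TNF-α replicate 2 or 3 (adjusted p from 0.195 to 0.338), a pseudocount of 0.1 (0.0603) and limma-voom (0.0760).

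Of 25 partners of SOX2 and neural progenitor factors, 10 were tested and none passed by limma, with 5 of the 10 at an unadjusted p under 0.05 (24.2% of all tested genes) and a median of -0.40. The largest difference was in POU3F2, a POU factor that works with SOX2 in neural progenitors. Its FPKM was 20.1, 20.1 and 20.7 in NC and 10.6, 2.91 and 4.39 in TNF-α, with all treated libraries far below the controls. The log2 fold change was -1.77 ± 0.39 (SE, adjusted p = 0.132). With TNF-α replicate 1 alone it was -0.88. Without replicate 1 it was -2.21 and passed (adjusted p = 1.2e-05), as did 9630 of the 12136 tested genes. SALL1 followed, at -0.57 (adjusted p = 0.195), with -0.13 for replicate 1 alone and -0.79 without it, where it passed.

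Of 18 cartilage genes known as targets of SOX9, SOX5 and SOX6, 8 were tested and 1 was higher (against 0.717% of all tested genes). This was COL27A1, a fibrillar collagen. Its FPKM was 1.41, 1.47 and 1.28 in NC and 3.10, 3.12 and 2.79 in TNF-α, with little spread in either group (log2 fold change 0.75 ± 0.11 SE, adjusted p = 0.0485). The call was lost under 13 of 17 alternatives, among them leaving out any 1 NC library or TNF-α replicate 2 or 3 (adjusted p from 0.195 to 0.368), a pseudocount of 0.1 (0.0545) and limma-voom (0.142), while the log2 fold change stayed between 0.71 and 0.79 over all libraries left out in turn. With TNF-α replicate 1 alone COL27A1 was at 0.78. COL11A1, another fibrillar collagen, was at -0.99 (adjusted p = 0.191), with -0.38 for TNF-α replicate 1 alone and -1.29 without it, where it passed. The median of the 8 was 0.11, and 3 of the 8 had an unadjusted p under 0.05 by limma (24.2% of all tested genes).

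Of 19 neural crest and oligodendrocyte genes known as targets of SOX10, 4 were tested and 1 was lower (against 0.297% of all tested genes). PDGFRA, the receptor that marks oligodendrocyte progenitors and a subset of gliomas, had an FPKM of 2.94, 2.71 and 2.75 in NC and of 0.959, 0.313 and 0.487 in TNF-α (log2 fold change -1.28 ± 0.17 SE, adjusted p = 0.0350). SOX10 itself had at most 6 reads in any library. Of the PDGFRA exons, 15.8% are shared with another gene on the same strand. With TNF-α replicate 1 alone PDGFRA was at -0.95. The call was lost under 10 of 17 alternatives, among them leaving out any 1 NC library or TNF-α replicate 2 or 3 (adjusted p from 0.103 to 0.242), a pseudocount of 0.1 (0.0748) and limma-voom (0.0795). The median of the 4 was -0.03, and 1 of the 4 had an unadjusted p under 0.05 by limma (24.2% of all tested genes). CNP was at 0.51 (adjusted p = 0.198) and turned to -0.01 with TNF-α replicate 1 alone, while it passed without that library (0.78).

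Of 10 targets of SOX4 and SOX11, 7 were tested and none passed by limma, with 1 of the 7 at an unadjusted p under 0.05 (24.2% of all tested genes) and a median of 0.08. TCF12, a helix-loop-helix factor, was at -1.16 (adjusted p = 0.195), with -0.14 for TNF-α replicate 1 alone and -1.67 without it, where it passed. PRDX2, a peroxiredoxin, was at 0.96 (adjusted p = 0.196) and turned to -0.09 with TNF-α replicate 1 alone, while it passed without that library (1.48).

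Of 17 astrocyte and radial glia genes, 10 were tested and 1 was lower (against 0.297% of all tested genes). The median was -0.39, and 5 of the 10 had an unadjusted p under 0.05 by limma (24.2% of all tested genes). GFAP, the intermediate filament of astrocytes, had an FPKM of 8.16, 7.10 and 9.47 in NC and of 1.58, 2.60 and 2.39 in TNF-α, and as with SOX21 replicate 1 was low too (log2 fold change -1.54 ± 0.18 SE, adjusted p = 0.0210). With TNF-α replicate 1 alone GFAP was at -1.83. The call was lost under 7 of 17 alternatives, which were leaving out any 1 NC library or TNF-α replicate 2 or 3 (adjusted p from 0.0575 to 0.166), no filter (0.0654) and the replicate block (0.110). VIM, the filament of mesenchymal and glial cells, was at 325, 341 and 362 in NC and at 434, 974 and 850 in TNF-α, with a log2 fold change of 1.05 ± 0.34 (SE, adjusted p = 0.195), which was 0.34 for replicate 1 alone and 1.41 without it, where it passed. Exons on the opposite strand overlap 18.4% of GFAP and 24.4% of VIM.

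**Figure D4:**
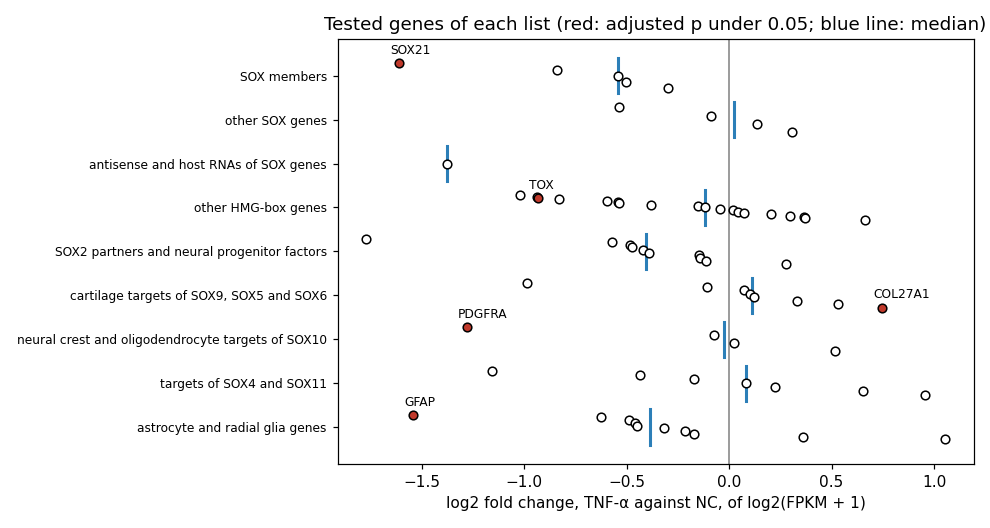
Log2 fold change of TNF-α against NC on log2(FPKM + 1) for each tested gene of the SOX members and of 8 further lists, each point 1 gene, red where the adjusted p was under 0.05, with the median of each list as a blue line. The 5 genes past the threshold were SOX21, TOX, PDGFRA and GFAP, all lower, and COL27A1, higher.

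**Figure D5:**
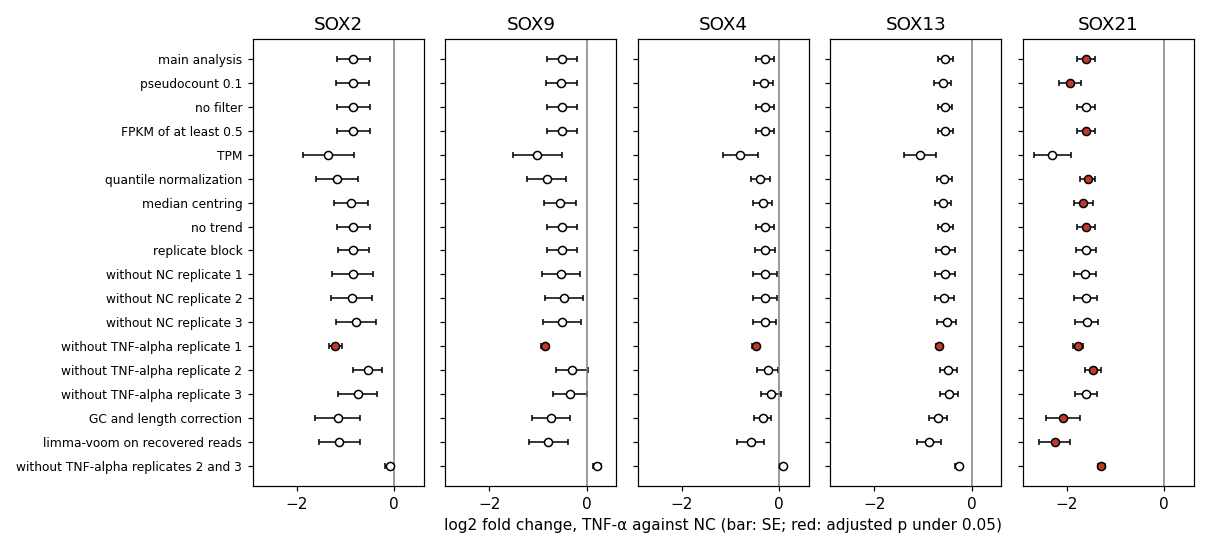
Log2 fold change of TNF-α against NC for the 5 tested SOX genes under the main analysis and each alternative, with the SE as a bar and red where the adjusted p was under 0.05. SOX21 lay between -2.30 and -1.29 throughout, and SOX4 and SOX9 lay above 0 with TNF-α replicate 1 as the only treated library.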

How the data were processed

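Expression was measured by poly(A) RNA-seq (NEBNext Ultra kit). The authors deposited FPKM per gene and library, with gene lengths. The submitters' processing notes name HISAT2 2.0.5, StringTie 1.3.3b and featureCounts 1.5.0. The use of strand in counting and the genome build were not given in the sources used here, but all 58735 genes matched GENCODE 29 (GRCh38) in identifier, name, start, end and exon length. Another 6 columns of per-sample values, which match no sample described here, were not used.

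Dividing the deposited FPKM times gene length by a step per library gave whole reads for 100% of values. The library size inside the FPKM was 0.925 to 0.959 of the reads in genes in 4 libraries, but 0.693 and 0.759 in TNF-α replicates 2 and 3, which raises every FPKM of these, and TPM removes this factor. Intervals on such reads would cover counting error only, and 3 reads were taken as the floor. Genes that reached an FPKM of 1 in 3 or more libraries were compared as log2(FPKM + 1), a scale that understates changes of low genes, with limma 3.58.1 in R 4.3.3 (lmFit and eBayes with trend, two-sided, all 6 libraries, no covariate). P-values were adjusted over the 12136 genes tested, and adjusted p-values are from limma throughout. Ratios were tested by exact two-sided permutation in scipy 1.17.1. The code was tested on simulated data. Python 3.11.15, numpy 2.4.6, pandas 2.3.3 and matplotlib 3.10.9 were used.

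The members and lists were chosen with earlier results of these data known. Named were all members, the other SOX genes and their antisense and host RNAs, every gene of a list past the threshold, the 2 tested genes of each list with the largest absolute change, and the 5 genes closest to SOX21. CNR1 was picked from those 5 as an example after its values were seen, as were the genes named singly from the cell type markers.

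The alternatives were a pseudocount of 0.1, no filter, a filter at an FPKM of 0.5, TPM, quantile normalization, median centring, no trend, the replicate number as a block, each library left out, and natural splines of GC content and exon length (5 degrees of freedom each). Chosen after seeing the data were limma-voom on the recovered reads and leaving out TNF-α replicates 2 and 3 together.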

Additional observations from a re-analysis of the deposited data

How the results depend on the processing

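A total of 17 alternatives were run. SOX21 kept its call under 10 of them and its direction under all 17. Among these 10 was the fit without TNF-α replicate 1, where 9630 of the 12136 tested genes passed. SOX21 did not pass without a filter (-1.61, adjusted p = 0.0580), with TPM (-2.30, adjusted p = 0.0963), or without an NC library or TNF-α replicate 3, where libraries left out in turn gave -1.77 to -1.45. The ranges were -1.21 to -0.55 for SOX2, -0.48 to -0.17 for SOX4, -0.86 to -0.30 for SOX9 and -0.67 to -0.46 for SOX13, and these 4 passed only without TNF-α replicate 1. With TNF-α replicate 1 as the only treated library, SOX4 turned to 0.07 and SOX9 to 0.21. The number of SOX members called was 0 without a filter and 0 with TPM, and 0 to 5 with libraries left out.

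The number of genes called, 123, became 58 without a filter, 58 with TPM, 185 with quantile normalization, 247 with the GC and length correction, 77 with limma-voom and 732 with TNF-α replicate 1 alone, and ranged from 10 to 9630 with libraries left out (9630 without TNF-α replicate 1). TPM moved the median log2 fold change of all genes from 0.04 to -0.42, and limma-voom to -0.21. Relative to that median, SOX21 was at -1.88 and -2.04. The cause of these changes was not tested.

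With the replicate number as a block, 24 genes and 0 SOX members were called, and SOX21 was at -1.61 (adjusted p = 0.105). The deviations of same-numbered libraries from their group means correlated at -0.01, -0.18 and 0.12 across genes. These values cannot decide whether the numbers pair the samples, because TNF-α replicates 2 and 3 stood apart from replicate 1.

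Reversals among the other genes were SOX3 (-0.19 with TPM, -0.024 with quantile normalization, -0.37 with the correction), SOX15 (-0.27 with TPM, -0.49 with the correction, -0.068 with limma-voom) and SOX12 (0.14 without TNF-α replicate 1, the highest of -0.22 to 0.14 with libraries left out). With TNF-α replicate 1 as the only treated library they were SOX3 (-0.19), SOX15 (-0.049), BBX (0.13), CNP (-0.012) and PRDX2 (-0.089). The planned count tests with edgeR and DESeq2 were not run on these FPKM, and limma-voom on the recovered reads was run in their place. With 3 libraries a group, 2 of the treated ones apart in composition, and at most 27 reads of SOX6, 6 of SOX10 and 0 of SOX8 and SOX11 in any library, small differences in these genes were not detectable.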
